A study of Mus musculus with 80 samples.

Results

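The 34 genes described here encode the contractile apparatus of ventricular heart muscle and the structures that anchor it. They were listed by name as parts of the thick filament, the thin filament, the Z-disc and the attached intermediate filament, chaperone and ubiquitin ligase machinery, and each had to reach a mean of 1 CPM (counts after scaling libraries to a shared depth) over all 80 libraries. All 34 listed genes did so, out of 15879 genes tested and 56941 in the count table. Their smallest raw count in any library was 108, for Pdlim3, so no member was near the limit of detection.

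The sarcomere is the repeating contractile unit of striated muscle. Myosin thick filaments, held in the middle of the unit by M-band proteins such as myomesin, pull on actin thin filaments, and calcium opens the thin filament through the troponin complex and tropomyosin. Thin filaments of neighbouring sarcomeres are crosslinked at the Z-disc by alpha-actinin. Titin, the protein of Ttn, spans from Z-disc to M-band as a molecular spring. Mutations in many of these genes cause inherited cardiomyopathies.

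The tissue was left ventricle of C57Bl/6J mice, in 4 conditions for each sex with 10 libraries per group. Sham animals had a normal diet and 0 cGy, a centigray being a unit of absorbed dose. Western diet animals had 0 cGy as well, mixed field animals had a normal diet and 50 cGy of a field labelled "Mix", and gamma animals had a normal diet and 100 cGy of gamma radiation. The series title asks about lifelong effects of radiation and of a high fat diet. The labels name neither the components of the mixed field, the age, nor the time after exposure. They also do not state whether each library is a separate animal. P-values therefore describe variation among libraries, some of which may be technical. No combination of diet and radiation was among the groups, so the Western diet was compared with sham alone.

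Total counts ran from 13484776 to 22143504 per library, and mitochondrial genes took 18.8 to 31.3% of them. Each group holds 5 libraries with title numbers 1 to 20 (replicates 1 to 5) and 5 with title numbers 21 to 40 (replicates 6 to 10), and the labels do not say what separates the first run of numbers from the second. The share of counts in Rn18s-rs5, a ribosomal RNA gene that poly-A selection should remove, had a median of 3.57% in first-run and 0.484% in second-run females, against 0.351% and 1.65% in males. Myl7, a myosin light chain of atrial muscle, was above 10 CPM in 17 of 20 first-run males, in 3 of 20 second-run males and in 0 of 40 females. Female gamma replicate 7 had 0.129 CPM of Xist, against 102 to 280 CPM in the other 39 female libraries and at most 0.692 CPM in males, and 0 CPM of the Y-linked Ddx3y. The tissue label was checked against 7 cardiomyocyte markers that are no members, whose summed level was 29169 to 62245 CPM. Of 7 skeletal muscle markers Myh1, Myh2, Myh4 and Actn3 stayed under 1 CPM in every library, Tnni2 and Tnnt3 reached at most 3.92 and 2.29 CPM, and Mybpc2 had 12.8 to 53.3 CPM.

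Windows around the start sites of 4 members are shown here because the results turn on these genes. Pdlim3 had the largest sex difference among the members, Myl3 and Actc1 were also higher in males, and Ttn differed most between the runs of title numbers. Each run is the 250 bases before and the 50 bases after the annotated start in RefSeq on GRCm38.p6, 5′ to 3′ on the gene's own strand, with motif matches in capitals. Pdlim3 lies at chr8:45885237-45885536 on the plus strand, Myl3 at chr9:110763428-110763727 on the plus strand, Actc1 at chr2:114052826-114053125 on the minus strand and Ttn at chr2:76982498-76982797 on the minus strand.
Pdlim3: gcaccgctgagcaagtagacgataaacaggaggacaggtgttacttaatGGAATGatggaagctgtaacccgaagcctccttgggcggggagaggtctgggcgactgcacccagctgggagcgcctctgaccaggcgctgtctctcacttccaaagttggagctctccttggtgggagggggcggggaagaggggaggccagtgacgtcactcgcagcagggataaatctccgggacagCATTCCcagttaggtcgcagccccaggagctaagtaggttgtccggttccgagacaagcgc
Myl3: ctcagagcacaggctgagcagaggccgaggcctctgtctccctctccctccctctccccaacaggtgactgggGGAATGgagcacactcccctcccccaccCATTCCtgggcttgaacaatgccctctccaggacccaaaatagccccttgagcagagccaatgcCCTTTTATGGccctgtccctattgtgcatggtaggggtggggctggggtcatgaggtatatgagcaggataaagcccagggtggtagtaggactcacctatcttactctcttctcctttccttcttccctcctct
Actc1: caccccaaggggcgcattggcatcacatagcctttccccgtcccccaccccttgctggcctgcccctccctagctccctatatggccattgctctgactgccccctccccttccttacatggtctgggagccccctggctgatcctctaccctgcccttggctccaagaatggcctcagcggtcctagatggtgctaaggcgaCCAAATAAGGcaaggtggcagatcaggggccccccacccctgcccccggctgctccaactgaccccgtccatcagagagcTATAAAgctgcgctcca
Ttn: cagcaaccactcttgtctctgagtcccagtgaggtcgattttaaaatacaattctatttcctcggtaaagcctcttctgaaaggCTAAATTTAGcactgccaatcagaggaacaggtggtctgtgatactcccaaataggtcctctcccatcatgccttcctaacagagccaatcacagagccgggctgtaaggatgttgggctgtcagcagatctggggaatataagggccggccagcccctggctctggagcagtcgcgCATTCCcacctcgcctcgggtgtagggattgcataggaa
4 motifs were searched on both strands of such windows, which were present for 27 of the 34 members. They were the M-CAT box of TEAD factors (CATTCC), the TATA box (TATAAA), the MEF2 site and the CArG box of serum response factor (the last 2 by their consensus). In Pdlim3 the capitals mark an M-CAT box on the minus strand at base -201 from the start and one on the plus strand at -11. In Myl3 they mark M-CAT boxes at -177 (minus strand) and -149 and a CArG box at -85. In Actc1 a CArG box stands at -47 and the letters of the TATA box at 33. In Ttn a MEF2 site stands at -166 and an M-CAT box at 11. The matches at 33 and 11 lie after the annotated start. A CArG box was found for 6 of the 27 members with a window (22.2%) and in 1.63% of 32851 windows of all genes. The 2 shares differ in unit: a member counted if any of its windows matched, while the share over all genes is per window. A MEF2 site was found in 5 (18.5%) against 3.19%, an M-CAT box in 11 (40.7%) against 14.7%, and a TATA box in 6 (22.2%) against 13.6%. No overlap between motifs was counted, and a match is a description of letters, not of a bound site. Windows for Myom2, Tcap, Myot, Nexn, Cryab, Xirp1 and Trim55 were not analysed here.

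The members took a median of 6.95% of all counts in a library, from 5.9 to 8.43%. Per kilobase of the canonical transcript, the highest mean levels were those of the light chains and troponins. Myl2, the ventricular regulatory light chain, had 7639 CPM per kilobase, Myl3, the ventricular essential light chain, had 5473, and Tnni3, the inhibitory troponin subunit, had 4441. Tnnt2, the tropomyosin-binding troponin subunit, followed with 4279, Tpm1 (tropomyosin) with 3502, Tnnc1 (the calcium-binding troponin) with 2532 and Actc1 (cardiac actin) with 2528 CPM per kilobase. Tcap, the titin cap of the Z-disc, had 1698. At the low end were Mypn, which binds nebulin-type proteins and alpha-actinin at the Z-disc, with 16.3, and Pdlim3, an alpha-actinin-binding PDZ and LIM protein, with 6.77 CPM per kilobase. Tnni3 and Tnnt2, and likewise Tnnc1 and Actc1, differed by less than the spread over libraries. The order at the top depends on the length used: per kilobase of the union of exons, Tcap led with 1698 and Myl3, Myl2, Tnnc1, Tnni3 and Actc1 lay between 1693 and 1591, while the rank correlation over the 34 genes was 0.968. On the plain CPM scale, which favours long transcripts, Ttn had a mean of 4488 CPM although its level per kilobase was 41.7.

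The spread across the 80 libraries differed between members. For 8 of the 34 the highest library was under 2-fold above the lowest, the narrowest being Lmod2, a leiomodin that elongates thin filaments (508 to 779 CPM), and Ldb3, the Z-disc protein ZASP (827 to 1284 CPM). The widest were Ttn (2375 to 11845 CPM), Pdlim3 (7.1 to 29.7 CPM), Myom2, an M-band protein (416 to 1691 CPM), and Tcap (704 to 2816 CPM). 20 members overlap another annotated gene, 18 of them a gene on the opposite strand. Whether counting used strand is not given in the sources used here. These overlaps are of whole gene spans, introns included, so a partner need not share exons with the member. Where exons are shared, it is not known whether reads of both genes were kept apart.

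The first question was whether diet or radiation moved these genes. No member passed the adjusted p threshold of 0.05 (edgeR's quasi-likelihood test, Benjamini-Hochberg over 15879 genes) in any of 15 treatment comparisons: every treatment against sham within a sex, as the mean of the sexes and as the difference between them, plus the mixed field against gamma within a sex and as the mean. These were quiet comparisons for all genes. The Western diet called 0.397% of all genes in males, 0.0189% in females, 0% for the mean and 0.447% for the difference between the sexes. The mixed field called 0.0693%, 0%, 0% and 0.0315% in the same order, and gamma radiation 0.176%, 0%, 0% and 0%. The mixed field against gamma called 0.573% in males, 0.0252% in females and 0.0189% for the mean. The median standard error (SE) of a member in a comparison of single groups was 0.10 on the log2 scale, and in those comparisons the 95% bound farthest from 0 was 0.98, for Ttn under the Western diet in males. For the treatment differences between the sexes it reached 1.19, under the Western diet. At an unadjusted p under 0.05 a comparison held between 1 and 10 members, the most (10 of 34, or 29.4%, beside 12.8% of all genes) for the Western diet in males. DESeq2 and limma-voom also called 0 members in each of these comparisons.

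Member medians lay close to 0. They were 0.00 for the Western diet in males and -0.04 in females, -0.01 and -0.00 for the mixed field, and -0.06 and -0.06 for gamma radiation, beside medians over all genes between -0.01 and 0.01. For gamma radiation in males 6 of 34 members (17.6%) and 0 of 12 Z-disc members had a log2 difference above 0, beside 51% of all genes, with a smallest adjusted p of 0.561. In females 14 members and 7 of the 12 Z-disc members were above 0. The 3 treatments share their sham libraries, so their member values are not independent.

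**Figure D1:**
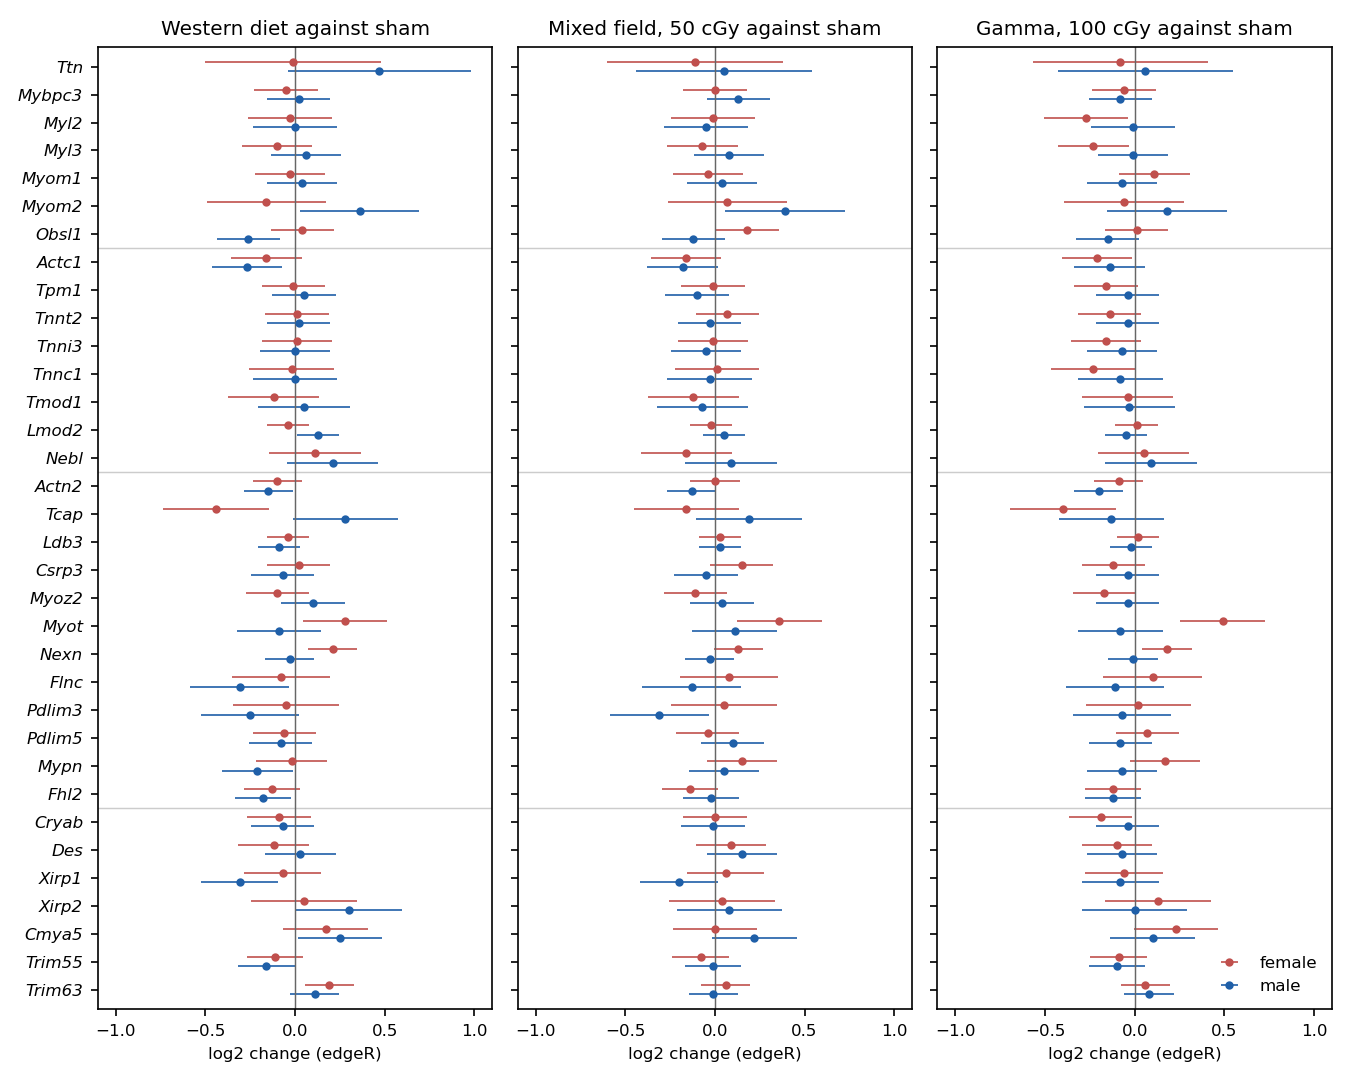
Log2 difference from sham (points) with its 95% interval (lines) for the 34 members, by role and sex, under the Western diet, the mixed field at 50 cGy and gamma radiation at 100 cGy, with 10 libraries per group. Most intervals cross 0, no member passed the adjusted threshold, and the intervals of Ttn are the widest.

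Thick filament members gave these values for treatments. Obsl1, a cytoskeletal adaptor protein, had 113, 143 and 162 CPM (lowest, median, highest) in male sham and 103, 118 and 134 CPM in male Western diet libraries, and the groups overlapped. Its log2 difference was -0.26 (SE 0.09, adjusted p 0.136 by edgeR), and all 10 Western diet libraries lay below the sham median. Over 11 alternatives this difference ran from -0.41 to -0.09. In females Obsl1 had 134 ± 22.8 CPM (SD, n = 10) in sham and 137 ± 15.2 in Western diet libraries. Myom2 had 860 ± 129 CPM in male sham and 1124 ± 351 in male mixed field libraries, a log2 difference of 0.39 (SE 0.17, adjusted p 0.544). It ran from 0.10 to 0.60 over 11 alternatives. Myl3 had 5097 ± 793 CPM in female sham and 4337 ± 332 in female gamma libraries (log2 difference -0.23, adjusted p 0.414). Mybpc3, cardiac myosin-binding protein C, had 4489 ± 380 CPM in male mixed field and 3879 ± 608 in male gamma libraries, a log2 difference of 0.21 with an adjusted p of 0.456.

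Among thin filament members, Actc1 had the smallest p for the Western diet. It had 8829, 10731 and 13030 CPM in male sham (lowest, median, highest) and 7777, 9043 and 10271 CPM in male Western diet libraries, a log2 difference of -0.27 (SE 0.10, adjusted p 0.202 by edgeR). All 10 Western diet libraries were below the sham median, and the ranges overlapped. Averaged over the sexes, the log2 difference of Actc1 from sham was -0.22 for the Western diet (adjusted p 0.278), -0.17 for the mixed field (0.803) and -0.18 for gamma radiation (0.368). Tnnt2 had 7870 ± 1806 CPM in female mixed field and 6782 ± 465 in female gamma libraries (log2 difference 0.21, adjusted p 0.271), and 6 of 10 mixed field libraries were above the gamma median.

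Of the Z-disc members, Myot and Tcap had the largest differences in females. Myot, the protein myotilin that crosslinks actin at the Z-disc, had 60.5, 82.6 and 94.3 CPM in female sham and 84.1, 105 and 182 CPM in female gamma libraries. All 10 gamma libraries were above the sham median, and the log2 difference was 0.49 (SE 0.12, adjusted p 0.289 by edgeR). Its log2 difference in females was 0.28 for the Western diet (adjusted p 0.616) and 0.36 for the mixed field (0.727), against the same sham libraries. In males Myot was at 112 ± 17 CPM in sham and 106 ± 14.8 in gamma libraries, and the gamma effect in males minus that in females was -0.57 on the log2 scale (adjusted p 0.467).

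Tcap had 1372, 1772 and 2235 CPM in female sham and 1070, 1332 and 1577 CPM in female Western diet libraries, all 10 of the latter below the sham median. The log2 difference was -0.44 (SE 0.15, adjusted p 0.474). In males it had 1616 ± 364 CPM in sham and 1969 ± 395 in Western diet libraries. The difference between the sexes in the Western diet effect was 0.73 (SE 0.21) with an adjusted p of 0.114, and it passed the threshold with a title run term in the fit (0.0205) and with a term for the Rn18s-rs5 share added (0.0387). Other Z-disc values were those of Nexn, an actin-binding protein of the Z-disc, with 503 ± 59.8 CPM in female Western diet and 434 ± 42 in female sham libraries (adjusted p 0.458), and of Actn2, sarcomeric alpha-actinin, with 2090 ± 202 CPM in male gamma and 2404 ± 217 in male sham libraries (adjusted p 0.561). Csrp3, a LIM protein that binds Tcap, had 1119 ± 242 CPM in female mixed field and 931 ± 87.8 in female gamma libraries (adjusted p 0.215).

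In the remaining group, Xirp1, an actin-binding Xin protein of the intercalated disc, had 239 ± 44 CPM in male Western diet and 296 ± 46.6 in male sham libraries (log2 difference -0.31, adjusted p 0.189). Within title numbers 1 to 20 this difference was -0.55 (adjusted p 0.0305) and within 21 to 40 it was -0.07 (adjusted p 0.999), and without libraries over 10 CPM of Myl7 it was -0.11. Trim63 (MuRF1), a ubiquitin ligase that acts on sarcomere proteins, had 185 ± 20 CPM in female Western diet and 162 ± 15.7 in female sham libraries (adjusted p 0.569). Des, the intermediate filament protein desmin, had a log2 difference of 0.21 between the mixed field and gamma as the mean of the sexes (adjusted p 0.313).

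More members were called between males and females, over the 4 conditions, than in any other comparison. The median SE of a member was 0.05 there, against 0.10 between single groups. Male and female libraries carry separate title series, lettered M and F. A difference in handling between the 2 series was not tested and cannot be told apart from sex. Averaged over the 4 conditions, 12 of 34 members were higher in males and 1 was lower, where 11.8% of all genes were higher and 11.5% lower (23.3% called in all, against 38.2% of the members). The member median was 0.09 on the log2 scale beside -0.01 for all genes, and 26 of 34 members (76.5%) were above 0, against 47.7% of all genes. By role, thin filament genes gave 4 higher of 8, Z-disc genes 5 higher of 12, thick filament genes 2 higher and 1 lower of 7, and the intermediate filament, chaperone and ligase group 1 higher of 7. Apart from Pdlim3, the called log2 changes were between 0.08 and 0.22 in size.

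Pdlim3 (ENSMUSG00000031636, chromosome 8, 46338398 to 46372689 on GRCm39) stood out. Its lowest, median and highest levels in males were 11.5, 14.4 and 29.7 CPM in sham, 10, 12.4 and 23.3 in Western diet, 8.3, 12.8 and 19.8 in mixed field and 12.1, 14.7 and 19.7 in gamma libraries. In females they were 7.69, 9.31 and 14.9 in sham, 7.3, 8.94 and 12.2 in Western diet, 7.1, 9.7 and 14.7 in mixed field and 7.75, 9.79 and 12.6 in gamma libraries. The male median exceeded the female median in all 4 conditions, and 38 of 40 male libraries were above the female median, although the ranges overlapped. The mean was 14.8 ± 4.25 CPM in males and 9.72 ± 1.81 in females (SD, n = 40), a log2 difference of 0.60 (SE 0.07, adjusted p 1.03e-09 by edgeR). It was 0.76 in sham, 0.56 in Western diet, 0.40 in mixed field and 0.68 in gamma libraries.

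Markers of other cell types also moved with sex. All 6 atrial muscle markers were higher in males, with a summed level of 6.92 to 2159 CPM in males and 2.58 to 27.1 CPM in females. In females Myl7, Sln and Mybphl were under 1 CPM in every library. The median summed level was 170 CPM in first-run males and 6.51 CPM in first-run females. In the second run it was 10.1 CPM in males and 8.62 CPM in females. All 4 smooth muscle markers tested were higher too (median log2 difference 0.76, Lmod1 0.86, Cnn1 1.03), with a summed level of 40.5 to 221 CPM in females and 90.5 to 321 CPM in males, and Tagln was under 1 CPM in every library. The adipocyte genes Adipoq (1.78) and Plin1 (1.49) were higher in males at summed levels of at most 8.65 CPM. Of the 7 other cardiomyocyte markers 0 were higher and 1 was lower. In bulk tissue, more cells of a type and more RNA per cell cannot be told apart. Without the 20 male libraries over 10 CPM of Myl7, which leaves 3 first-run and 17 second-run males, the difference of Pdlim3 was 0.49 (adjusted p 1.48e-05 by edgeR). The part of smooth muscle in it was not tested.

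Of the thick filament members, Myl3 (chromosome 9, 110570929 to 110599396 on GRCm39) had 5550 ± 916 CPM in males and 4762 ± 640 in females (log2 difference 0.22, SE 0.05, adjusted p 0.000417), and 36 of 40 males were above the female median. Its difference was 0.09 in sham, 0.25 in Western diet, 0.24 in mixed field and 0.31 in gamma libraries. Myl2 had 6722 ± 1226 against 5928 ± 1176 CPM (0.19, adjusted p 0.02). Obsl1 was the 1 member lower in males, at 129 ± 20.1 against 140 ± 17.5 CPM (-0.12, adjusted p 0.0348), although in sham libraries its difference was 0.07.

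The thin filament genes that were higher in males were Tpm1, Actc1, Lmod2 and Nebl. Tpm1 had 8194 ± 1190 CPM in males and 7144 ± 898 in females (log2 difference 0.20, adjusted p 0.000636), with 35 of 40 males above the female median. Actc1 had 9784 ± 1525 against 8646 ± 1353 CPM (0.18, adjusted p 0.00526). Lmod2 had 640 ± 71.9 against 596 ± 44.5 CPM (0.10, adjusted p 0.0131). Nebl, which encodes the thin filament and Z-disc protein nebulette, differed by 0.18.

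At the Z-disc, Actn2 had 2217 ± 228 CPM in males and 1983 ± 242 in females (log2 difference 0.16, adjusted p 0.000764), and 35 of 40 males were above the female median. Myot (0.20, adjusted p 0.014), Tcap (0.21, adjusted p 0.0312) and Ldb3 (0.08) were also higher. Myot differed by 0.49 in sham, 0.13 in Western diet, 0.24 in mixed field and -0.08 in gamma libraries. The difference of Tcap was 0.60 in Western diet and -0.12 in sham libraries, and its adjusted p was 0.0544 without male sham replicate 2 and 0.0502 without male Western diet replicate 1. Xirp2, the second Xin protein, was the 1 gene of the remaining group that was higher in males, by 0.21.

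**Figure D2:**
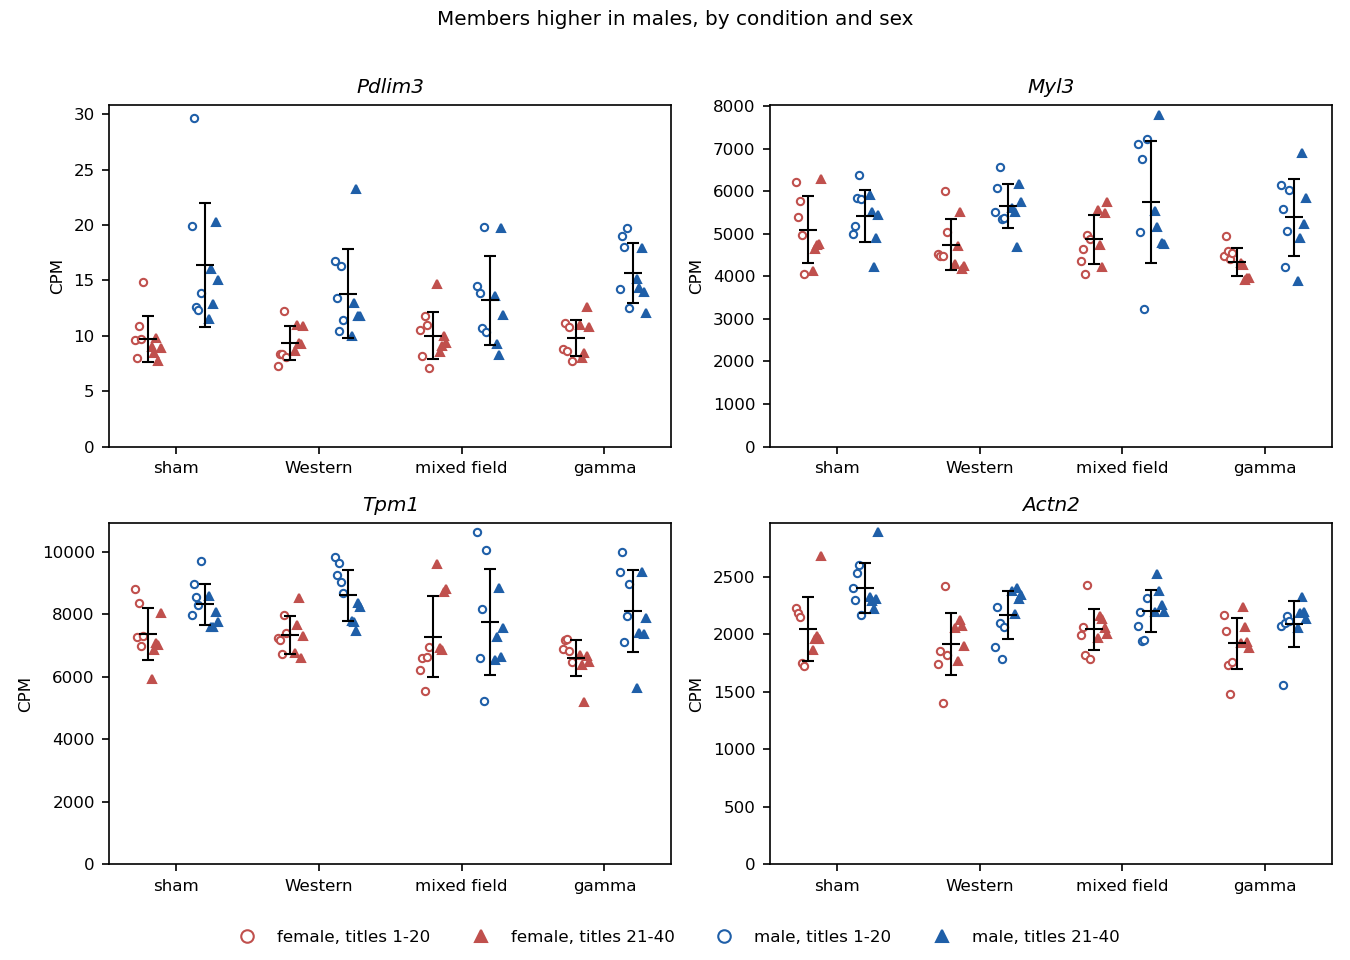
CPM of Pdlim3, Myl3, Tpm1 and Actn2 in each of the 80 libraries by condition, sex and run of title numbers, with the mean and SD of each group of 10 (black). Male means lie above female means in all 4 conditions for each gene, with overlapping ranges, and the gap is widest for Pdlim3 (14.8 against 9.72 CPM over 40 libraries each).

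The sex differences did not all hold in subsets of the libraries. Pdlim3, Myl3 and Actn2 passed the threshold under all 14 alternatives. Within title numbers 1 to 20, 12 members passed, 8 of them among the 13, and within title numbers 21 to 40, 10 members, 6 of them among the 13. Ttn was lower in males within the first run (-0.53, adjusted p 0.0144) and higher within the second (0.24, adjusted p 0.00082), and Myom1, the M-band protein myomesin, likewise (-0.21 and 0.22). Leaving out single libraries in 80 fits, Ldb3 was lost in 20, Obsl1 in 11, Xirp2 in 10 and Nebl in 8. Without the libraries over 10 CPM of Myl7, 9 members passed, 7 of them among the 13, and Ldb3, Lmod2, Nebl, Obsl1, Tcap and Xirp2 did not. That fit keeps 3 first-run and 17 second-run males beside 20 females of each run, so Myl7 level and run cannot be told apart in it. Ldb3, Lmod2, Nebl, Obsl1 and Tcap also did not pass within title numbers 21 to 40. Nor did Actc1 (adjusted p 0.698 by edgeR) and Tpm1 (0.202) in that run. Within title numbers 1 to 20, Myl2 (adjusted p 0.2 by edgeR), Myot (0.805), Nebl (0.0738), Obsl1 (0.0533) and Xirp2 (0.288) did not pass.

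In sham libraries alone, 2 members were higher in males, both of the Z-disc, where 0.724% of all genes were higher and 0.472% lower (1.2% called). Pdlim3 had 16.4 ± 5.57 CPM in males and 9.7 ± 2.05 in females (log2 difference 0.76, SE 0.15, adjusted p 0.000702), with all 10 males above the female median. Myot had 112 ± 17 and 79.5 ± 10.4 CPM (0.49, SE 0.12, adjusted p 0.0203), with 9 of 10 males above the female median. Without male sham replicate 4 or female sham replicate 7 the adjusted p of Myot was 0.0536 and 0.0554. With 4 male sham libraries left after removal of those over 10 CPM of Myl7, neither passed, at log2 differences of 0.62 for Pdlim3 (adjusted p 0.0867) and 0.50 for Myot (adjusted p 0.229).

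More genes differed between the runs of title numbers than in any treatment comparison, and Ttn (ENSMUSG00000051747, chromosome 2, 76534136 to 76812891 on GRCm39, minus strand) moved most among the members. In female sham libraries Ttn had 2911, 8103, 2399, 11158 and 10446 CPM in the first run and 3099, 3140, 3384, 2375 and 2827 CPM in the second. Female Western diet libraries had 7304, 6641, 5026, 3075 and 11845 CPM and then 2685, 3289, 3350, 3233 and 3154 CPM. Female mixed field libraries had 5703, 5338, 6187, 7072 and 6039 CPM and then 3255, 3318, 3107, 3238 and 3062 CPM. Most first-run libraries were high and widely spread, with 1 or 2 per group near the second run in sham, Western diet and gamma libraries, while second-run libraries sat close together. Female gamma libraries had 3367, 9685, 7460, 4882 and 5919 CPM and then 3441, 3127, 3031, 3043 and 3264 CPM. Over all 4 conditions the mean was 6528 ± 2706 CPM in the first run and 3121 ± 252 in the second (SD, n = 20), a log2 difference of -1.06 (SE 0.13, adjusted p 5.35e-09 by edgeR). It was -1.24, -1.11, -0.92 and -0.98 in sham, Western diet, mixed field and gamma libraries, and -0.76 (adjusted p 0.00378) with the Rn18s-rs5 share as a term.

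In males Ttn had 4617 ± 1910 CPM in the first run and 3687 ± 431 in the second, and the difference of -0.28 did not pass the threshold. Male Western diet libraries of the first run were high, at 4643, 7713, 5360, 8682 and 7538 CPM, against 3649, 3537, 3391, 3515 and 3654 CPM in the second, and these groups did not overlap. Male sham libraries had 3119, 2661, 3008, 3023 and 6259 CPM in the first run and 3921, 3972, 3585, 4092 and 3550 CPM in the second. The run difference of Ttn was not the same in the sexes (0.79, SE 0.19, adjusted p 0.00113).

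**Figure D3:**
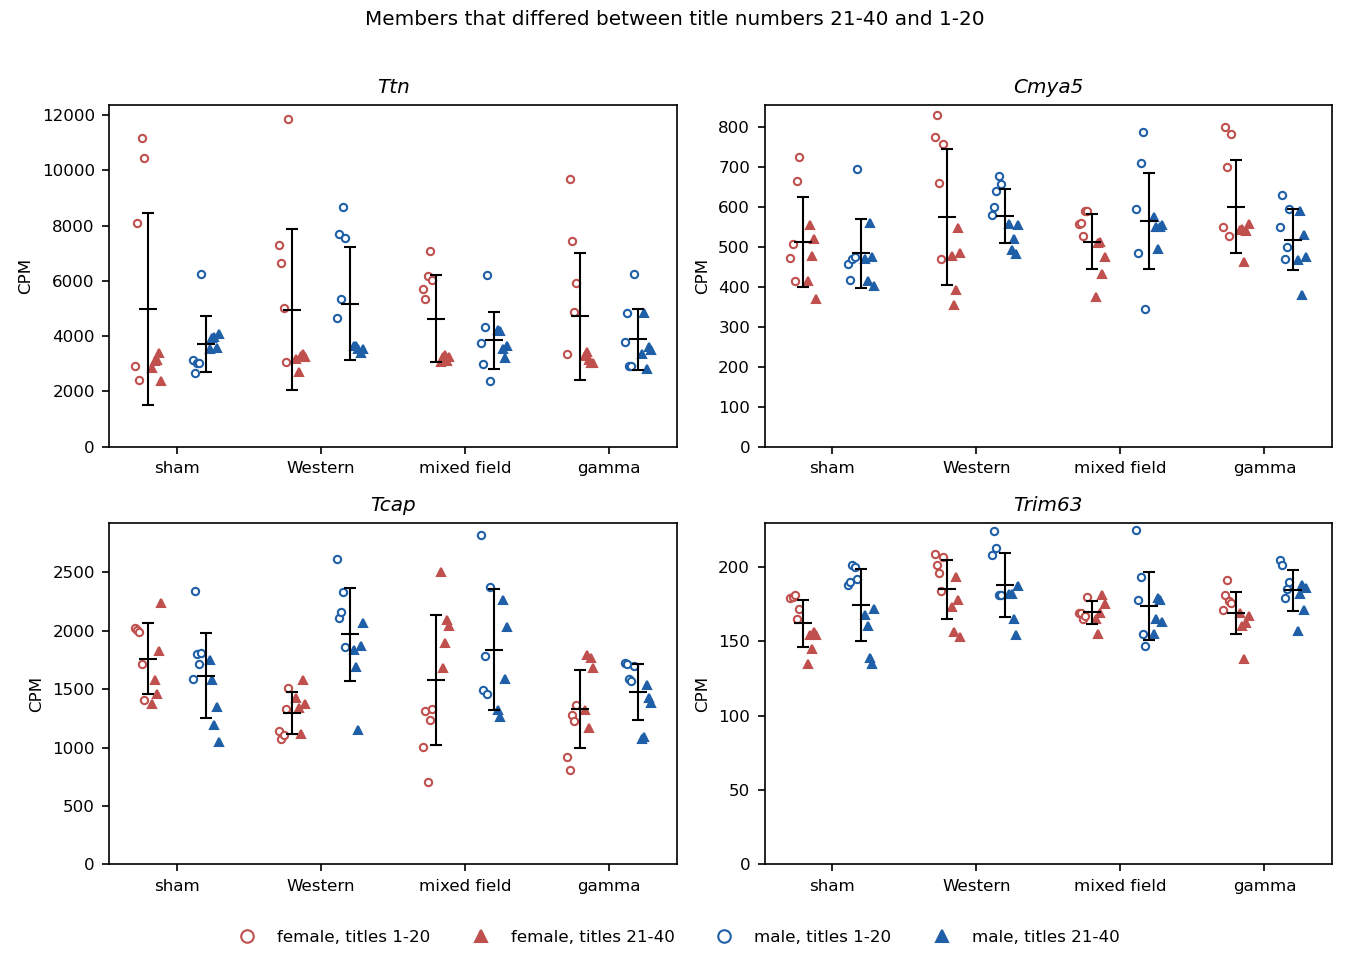
CPM of Ttn, Cmya5, Tcap and Trim63 in each of the 80 libraries by condition, sex and run of title numbers (circles 1 to 20, triangles 21 to 40), with the mean and SD of each group of 10 (black). Ttn in first-run females spreads from 2399 to 11845 CPM, while second-run females lie between 2375 and 3441 CPM.

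Among females 3 members were higher and 6 lower in the second run, where 11.5% of all genes were higher and 11.7% lower (23.2% called, against 26.5% of the members). The lower ones after Ttn were Cmya5 (myospryn, a large scaffold near the Z-disc), from 622 ± 125 to 476 ± 66.7 CPM (-0.38, adjusted p 6.4e-05), Myom1 (-0.23, adjusted p 0.00416), Nebl (-0.22, 0.0479), Trim63 (-0.16, 0.00192) and Pdlim5, an alpha-actinin-binding PDZ and LIM protein (-0.15, 0.0497). The higher ones were Tcap, from 1324 ± 375 to 1662 ± 365 CPM (0.34, adjusted p 0.00416), Des (0.25, 0.00201) and Actc1 (0.21, 0.0107). With the Rn18s-rs5 share as a term 2 of the 9 passed, Ttn and Cmya5. Over 40 fits that leave out a library, Nebl was lost in 23 and Pdlim5 in 20. Smooth muscle markers moved with the female runs, with 2 of 4 higher in the second (median log2 difference 0.43) and median summed levels of 87.7 and 127 CPM, and 2 of 6 endothelial markers were higher. Of the 7 cardiomyocyte markers that are no members, 0 were higher and 2 lower (median log2 difference -0.13). The part of any of these cell types was not tested.

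Among males 2 members were higher and 7 lower, where 16.5% of all genes were higher and 12.3% lower (28.8% called, against 26.5% of the members). Tmod1, the tropomodulin that caps thin filaments, went from 204 ± 29.3 CPM in the first run to 155 ± 19.4 in the second (-0.39, adjusted p 0.00019), with all 20 second-run libraries below the first-run median. Also lower were Tcap (-0.34, adjusted p 0.00297), Nebl (-0.27, 0.0138), Trim63 (-0.19, 0.00017), Tpm1 (-0.18, 0.0192), Lmod2 (-0.17, 0.000554) and Fhl2, a LIM protein that binds titin (-0.14, 0.0464). Fhl2 was lost in 17 of 40 fits that leave out a library, and Tpm1 without male gamma replicate 10 (adjusted p 0.0524). The M-band genes Myom2 (0.33, adjusted p 0.0195) and Myom1 (0.21, 0.00675) were higher. None of the 9 passed with the Rn18s-rs5 share as a term, nor without the libraries over 10 CPM of Myl7, which leaves 3 first-run males, all of the mixed field. Some differences kept about their size with the Rn18s-rs5 term and without the Myl7 libraries, with larger SE. In that order, Myom1 was at 0.25 and 0.26, Tcap at -0.35 and -0.44 and Trim63 at -0.16 and -0.19. Over 13 alternatives, Nebl ran from -0.34 to 0.11, Tmod1 from -0.46 to -0.21, Tpm1 from -0.36 to -0.11 and Fhl2 from -0.27 to -0.09. Lmod2 ran from -0.21 to -0.12 and Myom2 from 0.21 to 0.81. Atrial markers moved with the male runs, 3 of 6 being lower in the second run and 1 higher. Their median summed level was 170 CPM in the first run and 10.1 CPM in the second. Smooth muscle markers had medians of 164 and 139 CPM, 3 of 4 being lower in the second run. Of 6 fibroblast markers 4 were lower (median log2 difference -0.37), as were both adipocyte markers tested (-1.47). Of the 7 cardiomyocyte markers that are no members, 1 was higher and 2 were lower (median -0.13). The part of any of these cell types in the differences was not tested.

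The run difference itself differed between males and females for 7 members, 4 higher and 3 lower in males than in females, where 13.9% of all genes were higher and 11.7% lower (25.6% called, against 20.6% of the members). Tcap moved in opposite directions, by 0.34 in females and -0.34 in males (difference -0.68, adjusted p 4.75e-05). So did Myom1, by -0.23 in females and 0.21 in males (difference 0.43, adjusted p 9.3e-05). Trim63 was lower in the second run in both sexes.

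Ttn and Cmya5, the members with the largest differences between the female runs, have long transcripts, so member values were set beside transcript length. The canonical Ttn transcript has 107543 bases, Xirp2 has 11967, Cmya5 has 11850, Mypn 9505, Flnc 9147 and Nebl 8993. Over all genes tested, the median run difference in females was 0.03 in the shortest class and -0.34 in the 58 longest genes, and in males 0.05 and -0.10. The relation of each of these 6 long members with the mean log2 level of 57 other genes over 15000 bases was computed within each sex and run, 28 relations in all with a Ttn relation to Rn18s-rs5, over 20 libraries each. For Ttn, Pearson's r was 0.89 in first-run females (Spearman's rho 0.80) and 0.95 in first-run males (rho 0.91), each with an adjusted permutation p of 9.33e-05 for r, and of 0.00024 and 9.33e-05 for rho. Without the 2 libraries farthest from the median r was 0.81 and 0.93. In the second run r was 0.49 in females, which rests on 2 libraries (-0.13 without them), and 0.64 in males (0.52 without 2). The raw permutation p of r was 1e-05 in both first-run sets, the smallest that 100000 resamples can give, and 0.041 and 0.0031 in the second-run sets (adjusted 0.0859 and 0.00799). These libraries span 4 conditions, and with group means removed r was 0.94 and 0.93 in the first run.

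Cmya5 (r 0.93 in first-run females and 0.78 in first-run males), Nebl (0.78 and 0.77) and Xirp2 (0.73 and 0.84) had positive relations with the long genes in the first run too, with adjusted permutation p of at most 0.000805. Mypn (-0.15 and -0.43) and Flnc, the actin crosslinker filamin C (-0.24 and -0.46), had negative r, with adjusted permutation p from 0.0859 to 0.559, although their transcripts are longer than that of Nebl. The relation of Ttn with the Rn18s-rs5 share had no common sign, with r of 0.35, -0.12, -0.68 and 0.63 in first-run females, second-run females, first-run males and second-run males (adjusted permutation p 0.195, 0.658, 0.00448 and 0.00638). What sets the level of long transcripts in the first run was not tested.

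**Figure D4:**
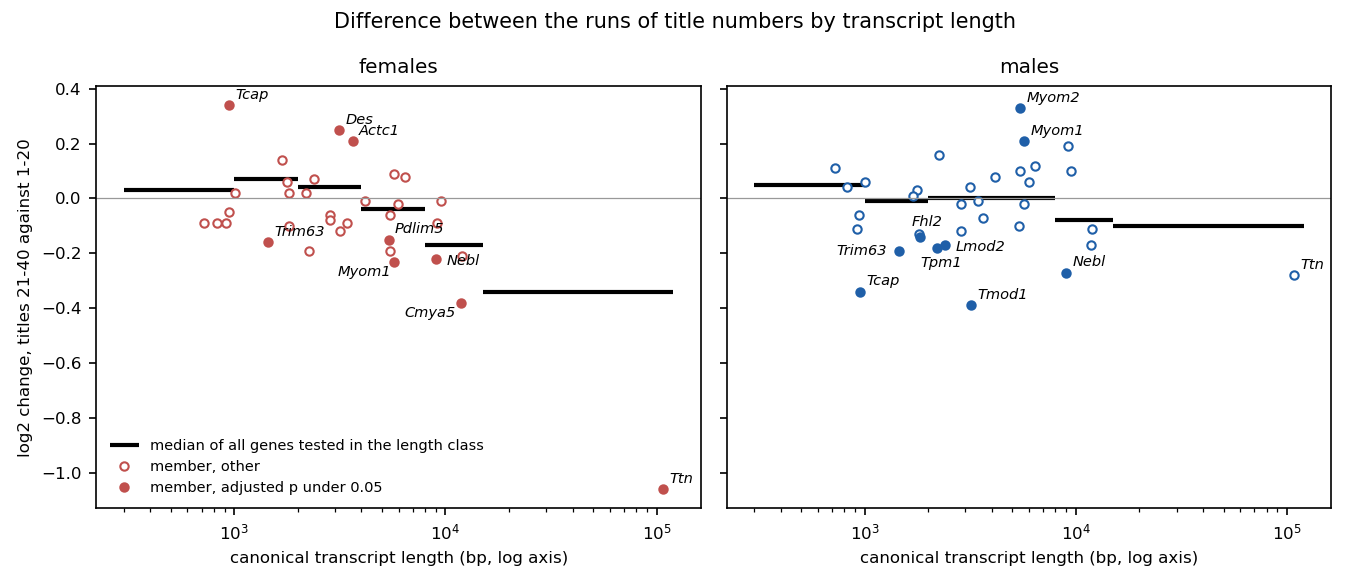
Log2 difference between title numbers 21 to 40 and 1 to 20 against canonical transcript length on a log axis, for the 34 members (circles, filled where the adjusted p is under 0.05), with the median of all genes tested in each of 6 length classes (bars). In females the medians of the 3 shorter classes lie between 0.03 and 0.07 and those of the 3 longer ones at -0.04, -0.17 and -0.34, and Ttn lies at -1.06.

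**Figure D5:**
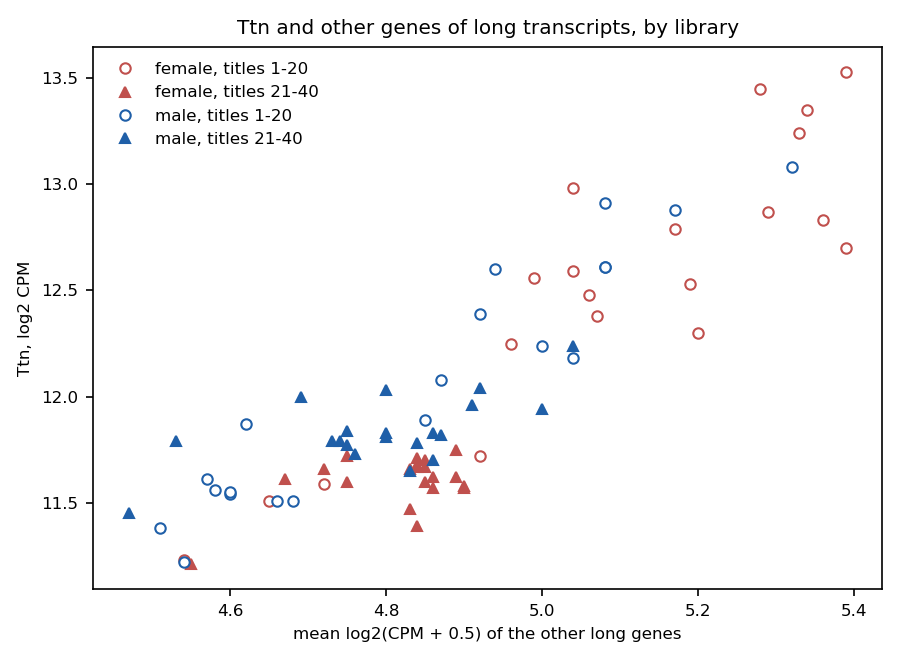
Log2 CPM of Ttn against the mean log2(CPM + 0.5) of 57 other genes with transcripts over 15000 bases, for each of the 80 libraries by sex and run. First-run libraries spread along the diagonal, with r of 0.89 in females and 0.95 in males. Some of them lie at the lower left, such as male sham replicate 2 (4.51 and 11.38). Second-run libraries span less of the Ttn axis, from 11.21 to 11.75 in females and from 11.45 to 12.24 in males.

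Other genes of the same structures, from lists set beside the members, gave the following counts. In the treatment comparisons, 0 genes passed among 27 other sarcomere genes, 17 costamere and intercalated disc genes, 10 muscle protein quality control genes and 18 muscle transcription and splicing regulators (edgeR). At most 5 genes of a list had an unadjusted p under 0.05. These were 5 of 10 quality control genes for the mean Western diet effect, beside 11.4% of all genes. The mixed field in females gave 5 of 27 other sarcomere genes, beside 6.47%. Between the sexes, over the 4 conditions, 11.8% of all genes were higher in males and 11.5% lower. Of the 27 other sarcomere genes 7 were higher in males and 3 lower, led by the atrial genes Myl7 (9.67), Mybphl (6.50) and Myl4 (5.60). Lmod3, a further leiomodin, differed by 0.20 (adjusted p 0.000222). Of the 17 costamere and intercalated disc genes 3 were higher in males: Sgcd, delta-sarcoglycan (0.56, adjusted p 0.000236), Pkp2, the desmosomal plakophilin (0.12), and Cavin4, a caveolar coat protein (0.14). The transcription factors Tbx5 (0.37), Tbx20 (0.20) and Srf, the factor that binds CArG boxes (0.18, adjusted p 0.00182), were higher in males, 3 of 18. The ligase Trim54 (-0.11) and the deubiquitinase Usp19 (-0.13) were lower in males, 2 of 10.

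Between the runs, 11.5% of all genes were higher and 11.7% lower in second-run females (23.2% called). In second-run males 16.5% were higher and 12.3% lower (28.8% called). Of 17 costamere and intercalated disc genes 8 were lower and 2 higher in second-run females, among them Dsp, desmoplakin (-0.45, adjusted p 2.34e-05), and Dmd, dystrophin (-0.41). In males 4 were lower and 0 higher, among them Sgcd (-0.70) and Dmd (-0.43). The 27 other sarcomere genes gave 2 higher and 3 lower in females and 7 higher and 5 lower in males. In males the slow myosin genes Myh7 (1.19, adjusted p 0.000137) and Myh7b (0.94) were higher. Among the regulators Myocd, myocardin (-0.77, adjusted p 4.66e-06), and Tead1, a factor of M-CAT boxes (-0.48), were lower in second-run females, and Tead1 was also lower in males (-0.28, adjusted p 0.0138). The small heat shock gene Hspb7 moved in opposite directions, by 0.32 in females (adjusted p 0.000769) and -0.53 in males (5.3e-08).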

How the data were processed

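RNA sequencing counts of 80 left ventricle libraries were analysed as deposited. Per the labels' protocols, poly-A selected libraries were sequenced on a NovaSeq-6000, and the submitters' processing notes list STAR 2.7.8a, FastQC 0.11.9 and GRCm39. Neither the counter nor its strand handling is given in the sources used here. The authors deposited raw counts per Ensembl gene, and 0 columns were left unmapped. Symbols and gene positions came from GENCODE vM39, which matched 56323 of 56941 IDs.

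From these counts, edgeR 4.0.16 (R 4.3.3) fitted 8 group coefficients to all 80 libraries with TMM scaling and the filterByExpr filter, which left 15879 genes. A second fit added a centred term for the run of title numbers in each sex. Its quasi-likelihood test was adjusted by Benjamini-Hochberg over all genes, and a gene was called at an adjusted p under 0.05. The SE is the log2 change divided by the square root of F. CPM use TMM-adjusted library sizes. Code was tested on simulated data. Alternatives used DESeq2 1.42.0, limma 3.58.1, other scalings and filters, added terms and subsets of libraries.

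The members and gene lists were chosen with earlier results of these data known. Every member is accounted for. Full statistics are given for members called in a comparison (at most 10 of smallest p), or for the 4 of smallest p where fewer than 4 were called. From the other lists the called genes are named (at most 4, otherwise the 1 of smallest p), and 1 gene of those lists is not reported here. Levels per kilobase of the canonical transcript, and relations with other long genes, were added after seeing the data.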

Additional observations from a re-analysis of the deposited data

Results flagged for a closer look

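Dixon's test at the 95% level marked 1 library in 27 of 272 sets of a member and a group of 10, where chance gives about 1 in 20 groups, or 13.6. Values are CPM, beside the range of the other 9 libraries where it helps.

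Male gamma replicate 7 was highest for Actc1 (13732, others 7795 to 10639), Tnnc1 (2630), Csrp3 (1502) and Cryab, the small heat shock protein that protects desmin (2149). Male Western diet replicate 7 was highest for Csrp3 (1319), Pdlim3 (23.3), Pdlim5 (732) and Xirp1 (346, others 194 to 265). Female gamma replicate 7, the library without Xist, was lowest for Tpm1 (5179, others 6368 to 7203) and highest for Des (2663). Female sham replicate 9 was highest for Actn2 (2679) and Des (3063), and female mixed field replicate 4 for Myot (186, others 70.7 to 118) and Xirp2 (879).

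Ttn was highest in female Western diet replicate 5 (11845, others 2685 to 7304), male sham replicate 5 (6259, others 2661 to 4092) and male mixed field replicate 4 (6201), all of the first run. Pdlim3 was highest in male sham replicate 2 (29.7, others 11.5 to 20.3) and female sham replicate 5 (14.9). Single marks were Actn2 in male gamma replicate 2 (1559, lowest), Obsl1 in male mixed field replicate 8 (184), Ldb3 in male mixed field replicate 5 (920, lowest), Nebl in male mixed field replicate 3 (369), Fhl2 in female mixed field replicate 10 (958, lowest), Flnc in male sham replicate 9 (843), Pdlim5 in female gamma replicate 2 (723) and Pdlim5 in female Western diet replicate 6 (445, lowest).

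The difference between the runs of title numbers was not the same in males and females for 7 members by edgeR's interaction contrast. On the log2 scale, male minus female, it was 0.79 for Ttn, 0.52 for Myom2, 0.43 for Myom1, 0.35 for Myot, -0.24 for Lmod2, -0.29 for Actc1 and -0.68 for Tcap. No cause was tested for any of these.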

How the results depend on the processing

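Of the member counts, that of males against females fell from 13 to 7 without a low-count filter, where more genes were tested. It ran from 10 to 15 over leave-one-out fits. In sham libraries it was 0 within title numbers 1 to 20 and 0 without libraries over 10 CPM of Myl7 (1 to 3 over leave-one-out fits). The Western diet difference between the sexes called 1 member, Tcap, with title run terms (1 also with the Rn18s-rs5 share added), and 0 or 1 over leave-one-out fits, 1 only without male Western diet replicate 7. Within title numbers 1 to 20 the Western diet called 2 members in males (Xirp1 and Trim55) and the mixed field 1 in females (Tcap, -0.72, adjusted p 0.0481 by edgeR, means of 1116 against 1830 CPM), where the second run turned the other way (2044 against 1693 CPM). Within title numbers 21 to 40 the mixed field against gamma called 3 in females (Flnc -0.64, Tnni3 0.53, Tnnt2 0.44, adjusted p 0.0439 each). In the first run these 3 lay the other way, with means for mixed field against gamma of 722 against 514 CPM for Flnc, 3416 against 4051 for Tnni3 and 6667 against 6925 for Tnnt2. The Rn18s-rs5 share term left 2 members in females and 0 in males between the runs, and 4 for the difference between the sexes. Without libraries over 10 CPM of Myl7 these were 0 in males and 4 for the difference, which was also 4 without Western diet libraries. Leave-one-out fits gave 7 to 10 members in females, 8 to 10 in males and 7 to 9 for the difference. Without libraries over 10 CPM of Myl7 the member median for the mixed field was 0.08 in males and 0.10 for the difference between the sexes. Within title numbers 21 to 40, Lmod2 (-0.02) and Tcap (-0.12) changed sign between the sexes, and Nebl changed sign between male runs (0.11) with the Rn18s-rs5 share term. The cause was not tested.

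Counts over all genes moved by more than 1.5 times in places. The Western diet in males called 63 genes, from 0 within title numbers 21 to 40 to 467 within 1 to 20, and its difference between the sexes 71 (1 to 154). The mixed field against gamma called 91 in males (2 to 161) and 4 in females (1 to 421). The mixed field called 11 in males (0 to 25) and gamma radiation 28 (0 to 45). The sexes differed for 190 genes in sham (43 to 543) and 3696 over the 4 conditions (1614 to 5187), and the runs for 4568 in males (358 to 4763), 3683 in females (483 to 5320) and 4068 for the difference (1002 to 5106). Where the treatment tests called 0 genes, alternatives called up to 97 for the mean Western diet effect, 39 for the mixed field in females, 48 for its mean, 9 for gamma radiation in females, 7 for its mean and 2 for its difference between the sexes.

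Replicate numbers are shared by the male and female groups. Same-numbered libraries did not deviate together (r from -0.23 to 0.28 over 40 pairs, over 0.1 in 11), and 0 males correlated best with their own number, so they were not taken as paired. With the replicate block 12 members differed between the sexes, 11 of them among the 13, and 2 in sham. The smallest member count in a library was 108, for Pdlim3, the member most limited by depth.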
